A study of Mus musculus with 6 samples.

Results

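Blood coagulation, the dissolution of clots and platelet activity were examined in denervated brown adipose tissue (BAT) through 9 genes, namely F3, F10, F13a1, Plau, Plaur, Thbs1, Thbd, Pf4 and Procr. The genes were chosen by name, with earlier results of these data known, and all 9 were found among the 35976 rows of the count table and among the 14542 genes that passed the expression filter. The data are 3 BAT libraries of WT mice and 3 of sST2-KO mice (titled ST2-KO in the labels), which by the study's methods were male littermates of 10 weeks on a C57BL/6J background. In the sST2-KO mice, an Il1rl1 intron that holds the stop codon of the soluble receptor sST2 had been deleted with CRISPR/Cas9, in the whole animal and not in BAT alone, while the membrane form ST2L was kept. By the study's description both groups, the WT controls included, had undergone surgical denervation of BAT and then 8 h at 10 °C, so no library shows innervated or warm tissue. A step of 7 days at 30 °C before the cold was read from the schematic of the denervation experiment. The labels and the methods text do not give this step for these mice, so it is less certain. The comparison addresses how loss of sST2 changed gene expression in denervated BAT during cold exposure.

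Coagulation starts when tissue factor, the product of F3, meets factor VII from the blood and the complex activates factor X, the product of F10, which in turn turns prothrombin into thrombin. Thrombin cuts fibrinogen into fibrin, and factor XIII, whose catalytic subunit is encoded by F13a1, cross-links it. Thrombomodulin (Thbd) and the endothelial protein C receptor (Procr) turn thrombin toward the activation of protein C, which shuts the cascade down. Urokinase (Plau), bound to its receptor (Plaur), converts plasminogen into plasmin, which dissolves fibrin. Thrombospondin 1 (Thbs1) and platelet factor 4 (Pf4) are stored in the alpha granules of platelets, but macrophages and other tissue cells also make them.

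The counts summed to between 8159442 and 12874809 per library, and are given below as CPM scaled by edgeR's TMM factors. Each library was taken as 1 of 3 mice in its group, and the SD is over 3 libraries. Where 3 values of a group are given they are in the order of the replicate numbers. The targeted gene Il1rl1 had 19, 19 and 6 WT counts against 55, 69 and 142 sST2-KO counts, which does not check the genotype because counts per gene add up sST2 and the membrane form. The brown adipocyte genes Ucp1, Cidea, Elovl3, Dio2, Ppargc1a, Cox8b and Otop1 summed to 8124 to 15297 CPM in WT and 327 to 1773 CPM in sST2-KO libraries, and all 7 were called lower in sST2-KO mice. Markers of other cells differed between libraries. A sum over 8 hepatocyte genes was 4964 CPM in WT replicate 2 and 8.29 to 46.5 CPM in the other 5 libraries. A sum over 11 skeletal muscle genes was 8.01 to 1315 CPM in WT and 3722 to 15802 CPM in sST2-KO libraries. The macrophage sum over 10 genes was 866 to 1133 CPM in WT and 1631, 1563 and 6600.0 CPM in the sST2-KO libraries. All 10 genes were highest in sST2-KO replicate 3. Csf1r, Mertk, C1qa, C1qb and C1qc overlapped between the groups, while Adgre1, Cd68, Fcgr1, Lyz2 and Itgam did not. Lyz2, which neutrophils share, had 265 to 352 CPM in WT and 710, 585 and 3383 CPM in the sST2-KO libraries. The monocyte sum over 6 genes was 70.0 to 168 CPM in WT and 706 to 1811 CPM in sST2-KO libraries. Neutrophil genes summed to 31.4 to 149.05 CPM in WT and 149.28 to 710 CPM in sST2-KO libraries, with 2 of 8 called higher. Erythrocyte genes summed to 484 to 1584 CPM in WT and 11.1 to 107 CPM in sST2-KO libraries, with 5 of 5 called lower. The sums over 5 genes of all adipocytes (11644 to 14592 against 4030.4 to 8161 CPM) and over 6 genes of smooth muscle and pericytes (627 to 693 against 281 to 472 CPM) were also separated, with 1 and 0 genes called lower. The adipocyte sum was mostly Fabp4 (9717 to 11807 CPM in WT), which was not called. Its member Lep went the other way, with 0.247 to 14.4 CPM in WT and 13.1 to 123 CPM in sST2-KO libraries. Lep overlapped and was not called (log2 fold change 3.27, quasi-likelihood adjusted p = 0.130). sST2-KO replicate 3 had the highest sum in 8 of 15 marker lists. In bulk tissue, fewer cells of a type and less RNA per cell cannot be told apart.

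Among the 9 genes, sST2-KO mice had higher BAT levels of Thbs1 and Plaur, and 0 were lower, where a call needed more than a 2-fold change and an adjusted p below 0.05. DESeq2 and an unadjusted p below 0.05 with the same fold gave 2 and 0 as well. Of all genes tested, 9.04% were called higher and 7.10% were called lower by this rule. Thbs1 and Plaur were also the 2 genes whose sST2-KO values all lay above the WT values, or 22.2% of the 9, and 21.8% of all genes tested showed this, so the share of separated genes was near the background. The reverse order was found in 0 of the 9 and in 19.7% of all genes tested. The log2 fold change was above 0 in 8 of the 9, against 7567 of the 14542 genes tested. The median was 0.98 for the 9 and 0.034 for all genes tested. With 1 library left out, F13a1, Pf4, Thbd and Procr fell below 0 in some fits, and F3 rose above 0 in some. F10, F13a1, Pf4 and Plau had log2 fold changes between 0.91 and 1.82 that did not pass the test, and F3, Thbd and Procr had log2 fold changes between -0.19 and 0.14. Both calls were lost in some fits with 1 library left out. Their log2 fold changes stayed at 1.71 to 2.64 (Thbs1) and 1.02 to 1.49 (Plaur). Such fits also have fewer libraries, and whether the calls rested on particular mice was not tested. Leaving out any library but sST2-KO replicate 1 left 0 or 1 of the 9 genes called higher.

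**Figure D1:**
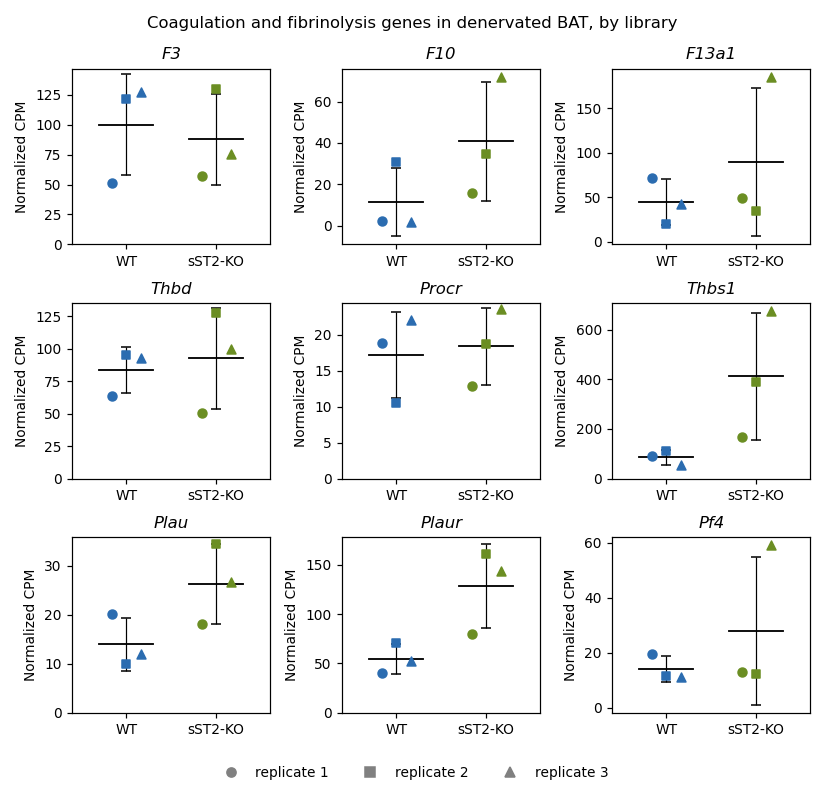
Normalized CPM (vertical axes, linear) of the 9 genes in WT and sST2-KO libraries, with 1 point per library, the symbol giving the replicate number, and the mean with its SD. Thbs1 and Plaur separate the groups, F10 is high in WT replicate 2, and F13a1 and Pf4 are high in sST2-KO replicate 3.

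**Figure D2:**
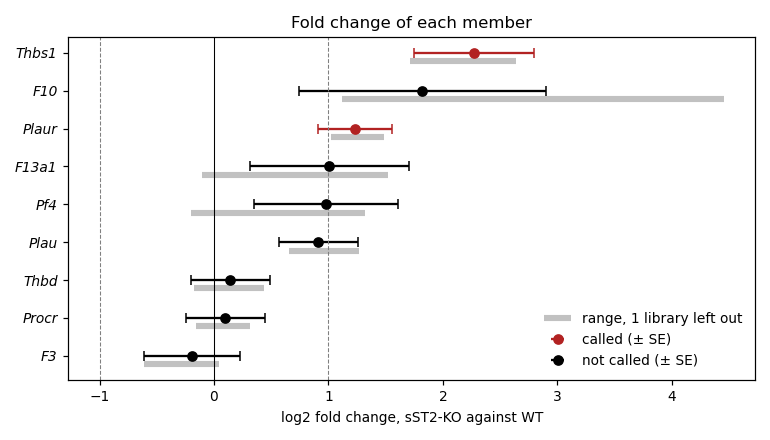
Log2 fold change of each gene, sST2-KO against WT, with its standard error (red where called, black where not), and the range of the fold change with each library left out in turn (grey bars). Thbs1, Plaur, Plau and F10 stay above 0 throughout, and F10 reaches 4.46 without WT replicate 2.

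Promoters from RefSeq were read for the members to show which short motifs they share. The 250 bases before the transcription start were matched for 6 of the 9 genes (F3, F10, F13a1, Plaur, Pf4 and Procr) with 7 starts, since F13a1 has 2. Of 8 motifs searched on both strands, TGANTCA, the binding motif of the AP-1 factors Fos and Jun, was found before 3 of the 7 starts, those of Plaur, F3 and Procr. It occurs in 6.75% of all 32851 promoters of this length. GGGCGG, the GC box, was found before the starts of F3 and Plaur and occurs in 32.7% of promoters. The other 6 motifs were TATAAA (the TATA box), TGACGTCA (the cyclic AMP response element), CACGTG (the E-box), CCGGAAGT (the ETS motif), GGAANTCCC (a kappaB motif) and the kappaB site of the kappa light-chain enhancer, and they were found in 0 of the 7 windows and in 0.140% to 12.4% of all promoters. The 3 windows with TGANTCA are shown because Plaur was called higher while F3 and Procr did not pass the test, with the motif in capitals. They are given 5′ to 3′ on the plus strand of GRCm38.p6, the build of the RefSeq table, and lie at chr7:24462233-24462482 (Plaur), chr3:121723287-121723536 (F3) and chr2:155750967-155751216 (Procr).
Plaur: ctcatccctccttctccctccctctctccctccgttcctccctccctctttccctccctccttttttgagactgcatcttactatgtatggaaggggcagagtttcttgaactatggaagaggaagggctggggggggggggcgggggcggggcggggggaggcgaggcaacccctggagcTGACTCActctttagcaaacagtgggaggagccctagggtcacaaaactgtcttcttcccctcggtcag
F3: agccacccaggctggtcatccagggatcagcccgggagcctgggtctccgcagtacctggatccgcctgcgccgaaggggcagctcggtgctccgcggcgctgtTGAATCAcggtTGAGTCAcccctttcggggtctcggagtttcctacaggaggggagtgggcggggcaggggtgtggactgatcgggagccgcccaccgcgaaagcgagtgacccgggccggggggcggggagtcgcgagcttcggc
Procr: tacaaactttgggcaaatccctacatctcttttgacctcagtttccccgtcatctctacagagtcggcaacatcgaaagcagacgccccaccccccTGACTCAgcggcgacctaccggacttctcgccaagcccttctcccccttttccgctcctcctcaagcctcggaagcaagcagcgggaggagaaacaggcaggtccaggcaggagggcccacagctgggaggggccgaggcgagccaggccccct
The motif starts 69 bases before the start of Plaur, 146 and 135 bases before that of F3 and 154 bases before that of Procr. The motif was thus present in genes on both sides of the threshold, and a match is a description of the letters. Thbs1, the other gene called higher besides Plaur, was not among the 6 genes matched.

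F3, which encodes tissue factor, the starter of coagulation on cells outside the blood vessel, did not pass the test. It lies on chromosome 3 from 121516610 to 121528820 (plus strand), and this and the following gene positions are of GRCm39, where all 9 genes are annotated as protein coding. F3 had 51.6, 122 and 127 CPM in the WT libraries against 57.5, 130.3 and 75.7 CPM in the sST2-KO libraries. The groups overlapped over nearly their whole range, and the lowest value was in WT replicate 1. The log2 fold change was -0.19 ± 0.42 (SE, quasi-likelihood adjusted p = 0.772), and with total counts in place of TMM it was 0.083.

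F10 encodes factor X, the protease at which the initiating and amplifying arms of the cascade meet, and the liver is its main source for the blood, while macrophages also express it. The gene occupies 13087293 to 13106676 of chromosome 8 (plus strand) and no other annotated gene overlaps it. F10 had 2.05, 30.6 and 1.603 CPM in the WT libraries, from 22, 325 and 13 counts. In the sST2-KO libraries it had 15.6, 34.5 and 72.2 CPM, from 224, 291 and 731 counts. All 3 sST2-KO values lay above WT replicates 1 and 3, and only WT replicate 2 overlapped them. Over all 6 libraries the log2 fold change was 1.82 ± 1.08 (SE, quasi-likelihood adjusted p = 0.266). Without WT replicate 2 it was 4.46 (adjusted p = 0.0397), and F10 was then the only 1 of the 9 genes called higher.

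WT replicate 2 was also the library with liver transcripts. All 20 clotting genes that are made mainly by hepatocytes, from a list that includes the fibrinogen chains (Fga, Fgb, Fgg), prothrombin (F2), plasminogen (Plg) and antithrombin (Serpinc1), were highest in WT replicate 2. Their sum was 2076 CPM there and 4.87 to 16.7 CPM in the other 5 libraries. Fga alone had 406 CPM in WT replicate 2 and 0.356 to 1.87 CPM elsewhere, and F9, the gene of factor IX, had 75 counts there and 0 in the others. In the sST2-KO libraries, where F10 was 15.6 to 72.2 CPM, the sum of the 20 genes was 4.87 to 7.67 CPM. The cofactor gene F5 and the gene F7, a neighbor of F10, had 14.7 and 12.3 CPM in WT replicate 2. In the other WT libraries F5 had 1.31 and 0.123 CPM and F7 had 1.77 and 2.10 CPM. In the sST2-KO libraries F7 had 1.25, 4.63 and 7.90 CPM and F5 had 0.627, 0.831 and 1.68 CPM. The part of liver RNA in the F10 value of WT replicate 2 was not tested.

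**Figure D3:**
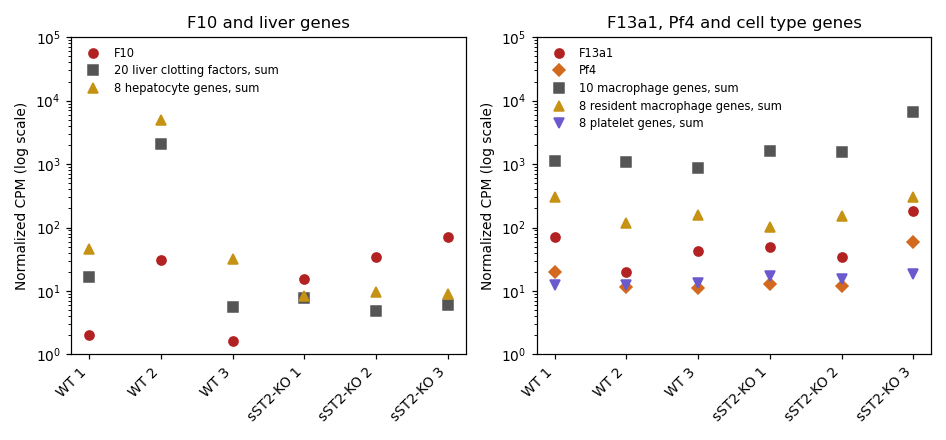
Normalized CPM per library on a log axis. Left, F10 with the sums over 20 liver clotting factors and 8 hepatocyte genes, which both peak in WT replicate 2, at 2076 and 4964 CPM. Right, F13a1 and Pf4 with the sums over 10 macrophage, 8 resident macrophage and 8 platelet genes, where both genes and all 3 sums are highest in sST2-KO replicate 3. The resident macrophage sum is nearly as high in WT replicate 1 (298.5 against 299.6 CPM). Of single genes, 10 of 10 macrophage, 2 of 8 resident macrophage and 3 of 8 platelet genes are highest in sST2-KO replicate 3.

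Thbd and Procr, the receptors that start the protein C pathway on endothelial cells, did not pass the test and had overlapping groups. Thbd is annotated on chromosome 2 from 148216045 to 148250201 (minus strand) and Procr on the same chromosome from 155593031 to 155597397 (plus strand). Thbd had 63.3, 95.2 and 92.7 CPM in the WT libraries against 50.7, 127 and 99.8 CPM in the sST2-KO libraries. Its log2 fold change was 0.14 ± 0.34 (SE, quasi-likelihood adjusted p = 0.795). Procr had 18.8, 10.5 and 22.1 CPM in WT and 12.8, 18.6 and 23.6 CPM in sST2-KO libraries, with a log2 fold change of 0.10 ± 0.34 (SE, quasi-likelihood adjusted p = 0.859). For both genes the lowest sST2-KO value was in replicate 1. In this fit, fold changes of 2 in either direction lie more than 2 standard errors away from the estimates. With total counts in place of TMM the log2 fold changes were 0.41 ± 0.32 for Thbd and 0.37 ± 0.34 for Procr (SE). A 2-fold rise then lies within 2 standard errors. The sum over 10 endothelial marker genes was 1484 to 1765 CPM in WT and 1381 to 2291 CPM in sST2-KO libraries and overlapped too, but among its members Kdr was called lower (log2 fold change -1.23, adjusted p = 0.0390) and Emcn higher (1.28, adjusted p = 0.0365). Tfpi, the endothelial inhibitor of the tissue factor complex, had 11.03 to 15.4 CPM in WT and 14.6 to 28.7 CPM in sST2-KO libraries (log2 fold change 0.69, adjusted p = 0.14).

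Plaur, the receptor that holds urokinase on the surface of macrophages, neutrophils and other migrating cells, was higher in every sST2-KO library than in any WT library. It lies on chromosome 7 from 24161875 to 24175394 (plus strand) with no overlapping gene. Plaur had 40.1, 71.0 and 52.4 CPM in the WT libraries against 79.9, 161 and 144 CPM in the sST2-KO libraries. The lowest sST2-KO value, 79.9 CPM, stood above the highest WT value, 71.0 CPM. The means were 54.5 ± 15.5 CPM (SD, n = 3) and 128 ± 42.9 CPM (SD, n = 3), and the log2 fold change was 1.24 ± 0.32 (SE, quasi-likelihood adjusted p = 0.0371). With 1 library left out the log2 fold change stayed between 1.02 and 1.49, and the adjusted p was at most 0.136 and under 0.05 only without sST2-KO replicate 1. All 6 monocyte markers, 3 of the 10 macrophage markers (Fcgr1, Lyz2 and Itgam) and 2 of the 8 neutrophil markers (Csf3r and Cxcr2) were called higher too. Of all genes tested, 9.04% were called higher. The part of these cells in the levels of Plaur, Serpinb2 and Thbs1 was not tested.

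Plau, which encodes urokinase itself, had values in the same direction but did not pass. It lies on chromosome 14 from 20886722 to 20893453 (plus strand). Plau had 20.1, 9.89 and 11.96 CPM in the WT libraries against 18.1, 34.4 and 26.8 CPM in the sST2-KO libraries. WT replicate 1 lay above sST2-KO replicate 1, and the other values were separated. The log2 fold change was 0.91 ± 0.35 (SE, quasi-likelihood adjusted p = 0.102). Plat, the gene of tissue plasminogen activator, had 24.4 to 29.2 CPM in WT and 17.0 to 38.02 CPM in sST2-KO libraries (log2 fold change 0.16, adjusted p = 0.748).

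Serpinb2, which encodes a urokinase inhibitor of macrophages and monocytes, was at 0.123 to 1.87 CPM in WT libraries. Its sST2-KO levels were 8.22, 7.12 and 109 CPM. Its log2 fold change of 5.33 (adjusted p = 0.0330) fell to 2.90 without sST2-KO replicate 3, and its adjusted p was 0.0685, 0.1003 and 0.1196 without WT replicates 1, 2 and 3.

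Thbs1 showed the largest fold change of the 9 genes. Its product is a large matrix protein that binds the receptors CD47 and CD36 and activates latent TGF-beta. Thbs1 lies on chromosome 2 from 117941974 to 117957616 (plus strand). It had 91.9, 111 and 52.6 CPM in the WT libraries against 168, 391 and 677 CPM in the sST2-KO libraries. All sST2-KO values were higher than all WT values, and replicate 3 was the highest. The means were 85.2 ± 29.8 CPM (SD, n = 3) and 412 ± 255 CPM (SD, n = 3), and the log2 fold change was 2.27 ± 0.52 (SE, quasi-likelihood adjusted p = 0.0266). The log2 fold change was 1.71 without sST2-KO replicate 3 (adjusted p = 0.0522), and the call was also lost without each WT library in turn (adjusted p = 0.0634, 0.0651 and 0.106).

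Of its receptors, Cd47 had 36.9 to 56.6 CPM in WT and 86.9 to 161 CPM in sST2-KO libraries and was called higher (log2 fold change 1.34, adjusted p = 0.0203). Cd36, which also takes up fatty acids in adipocytes, had 2382 to 2854 CPM in WT and 994 to 1693 CPM in sST2-KO libraries. All its sST2-KO values were below all WT values, but the log2 fold change of -0.86 did not pass (adjusted p = 0.0844). The relatives Thbs2, Thbs3, Thbs4 and Comp had overlapping groups and log2 fold changes between 0.010 and 0.94.

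F13a1 and Pf4 had their highest values in 1 sST2-KO library. F13a1, the gene of the fibrin cross-linking enzyme, which macrophages and megakaryocytes express, lies on chromosome 13 from 37051152 to 37234277 (minus strand), and Pf4 on chromosome 5 from 90918479 to 90922110 (plus strand). F13a1 had 71.5, 19.6 and 42.5 CPM in the WT libraries against 49.3, 33.9 and 186 CPM in the sST2-KO libraries. Pf4 had 19.7, 11.7 and 11.2 CPM in WT and 12.8, 12.1 and 59.1 CPM in sST2-KO libraries. Apart from sST2-KO replicate 3, the sST2-KO values of both genes lay inside the WT range. The log2 fold change was 1.01 ± 0.70 for F13a1 (SE, quasi-likelihood adjusted p = 0.334) and 0.98 ± 0.63 for Pf4 (SE, adjusted p = 0.303). Without sST2-KO replicate 3 these values were -0.11 and -0.20.

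The same library had the highest sums of macrophage (6600.0 CPM), resident macrophage (299.6), platelet (18.9), monocyte (1811), neutrophil (710), mast cell (249.6), fibroblast (10299) and skeletal muscle genes (15802 CPM). All macrophage, monocyte and skeletal muscle genes were highest there. For the rest it was 2 of 8 resident macrophage, 3 of 8 platelet, 4 of 8 neutrophil, 6 of 8 mast cell and 4 of 10 fibroblast genes. Lyz2, a lysozyme gene of macrophages and neutrophils, had 265 to 352 CPM in WT and was called higher. In sST2-KO replicates 1 to 3 it had 710, 585 and 3383 CPM. The complement gene C1qb was not called, with 164 to 203 CPM in WT and 182, 233 and 700 CPM in the sST2-KO libraries. Over the 8 markers of resident macrophages (Mrc1, Cd163, Lyve1, Folr2, Timd4, Cbr2, Cd209f and Cd209g) the sum was 119.97 to 299 CPM in WT and 101, 151 and 299.6 CPM in the sST2-KO libraries, and 0 of the 7 tested were called. The 8 platelet markers (Itga2b, Gp1ba, Gp1bb, Gp5, Gp6, Gp9, Ppbp and Treml1) summed to 12.2 to 13.2 CPM in WT and 15.2 to 18.9 CPM in sST2-KO libraries, and 0 of the 3 tested were called. Ppbp, stored in platelets beside Pf4, had 0.848 to 3.08 CPM in WT and 2.86 to 4.94 CPM in sST2-KO libraries. The part of RNA from macrophages, platelets or the other cells in the levels of F13a1 and Pf4 was not tested.

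Levels of different genes were compared as CPM per kb of the canonical transcript. In WT mice the order was F3 (50.3 ± 21.2), Plaur (35.4 ± 10.1), Thbd (22.5 ± 4.76), Thbs1 (13.7 ± 4.78), F13a1 (11.3 ± 6.58), Procr (10.6 ± 3.72), Pf4 (9.51 ± 3.19), Plau (5.96 ± 2.31) and F10 (4.22 ± 6.14 CPM per kb, SD, n = 3). Plaur and Thbd were the only neighbors in this order whose WT libraries did not overlap, and there the gap was from 25.6 to 26.05 CPM per kb. In sST2-KO mice Plaur (83.4 ± 27.9) and Thbs1 (66.1 ± 41.0) stood before F3 (44.0 ± 19.0), Thbd (24.9 ± 10.4), F13a1 (22.7 ± 21.1), Pf4 (18.8 ± 18.1), F10 (15.1 ± 10.6), Procr (11.4 ± 3.35) and Plau (11.2 ± 3.49 CPM per kb, SD, n = 3), and all neighbors overlapped.

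The rest of the pathway was followed in 69 further genes in 7 lists, of which 45 were tested. Of these, 6 were called higher (13.3%, against 9.04% of all genes tested) and 0 lower (against 7.10%), and their median log2 fold change was 0.43. DESeq2 called 1 lower, Mmrn1, and an unadjusted p called 2, Mmrn1 and Fga. Without the expression filter 14 were called lower, all of them liver clotting factor genes, whose highest value was in WT replicate 2. The sST2-KO values lay above all WT values in 11 genes (24.4%, against 21.8% of all genes tested) and below them in 4 (8.89%, against 19.7%). The genes called were Serpinb2 of 6 fibrinolysis regulators, Fgl2 of 10 cofactor and factor-handling genes, F2rl2 of 4 protease receptor genes, Cd47 of 6 thrombospondin and receptor genes, and Selp and Itgb3 of 11 platelet genes tested out of 17. Of 5 anticoagulant inhibitor genes and 3 liver clotting factor genes tested, 0 were called. The count of genes called higher was 3, 1 and 1 without WT replicates 1, 2 and 3. With 1 library left out, the highest quasi-likelihood adjusted p was 0.140 for Fgl2, 0.0889 for Cd47, 0.0803 for F2rl2 and 0.0734 for Itgb3.

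Selp, which encodes the adhesion receptor P-selectin of platelets and activated endothelium, had 12.6, 8.58 and 6.78 CPM in the WT libraries against 62.5, 114 and 121 CPM in the sST2-KO libraries. Its log2 fold change was 3.41 ± 0.35 (SE, quasi-likelihood adjusted p = 0.00900), and the adjusted p stayed under 0.05 with each library left out in turn. Itgb3, the beta chain of the platelet fibrinogen receptor and of the vitronectin receptor of other cells, went from 7.44 to 9.86 CPM in WT to 16.9 to 27.1 CPM in sST2-KO libraries (log2 fold change 1.27, adjusted p = 0.0220). Itga2b, the alpha chain found on platelets, had 6.90 to 7.44 and 8.43 to 10.4 CPM (log2 fold change 0.44, adjusted p = 0.209), so the 2 chains of the platelet receptor did not both pass.

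Fgl2, a membrane prothrombinase of macrophages and T cells, had 61.9 to 87.2 CPM in WT and 108 to 367 CPM in sST2-KO libraries (log2 fold change 1.62, adjusted p = 0.0365). F2rl2, which encodes the thrombin receptor PAR3, rested on 3 to 6 counts in WT and 15 to 40 counts in sST2-KO libraries (log2 fold change 2.34, adjusted p = 0.0186). The main thrombin receptor gene F2r had 18.2 to 27.3 and 21.8 to 33.3 CPM (log2 fold change 0.23, adjusted p = 0.526). Vwf, the endothelial carrier of factor VIII, had 32.1 to 48.3 CPM in WT and 53.5 to 77.2 CPM in sST2-KO libraries and did not pass (log2 fold change 0.65, adjusted p = 0.0846). S100a10, part of the annexin A2 complex that binds plasminogen, had 92.6 to 131 and 141 to 231 CPM without passing (log2 fold change 0.81, adjusted p = 0.0593).

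**Figure D4:**
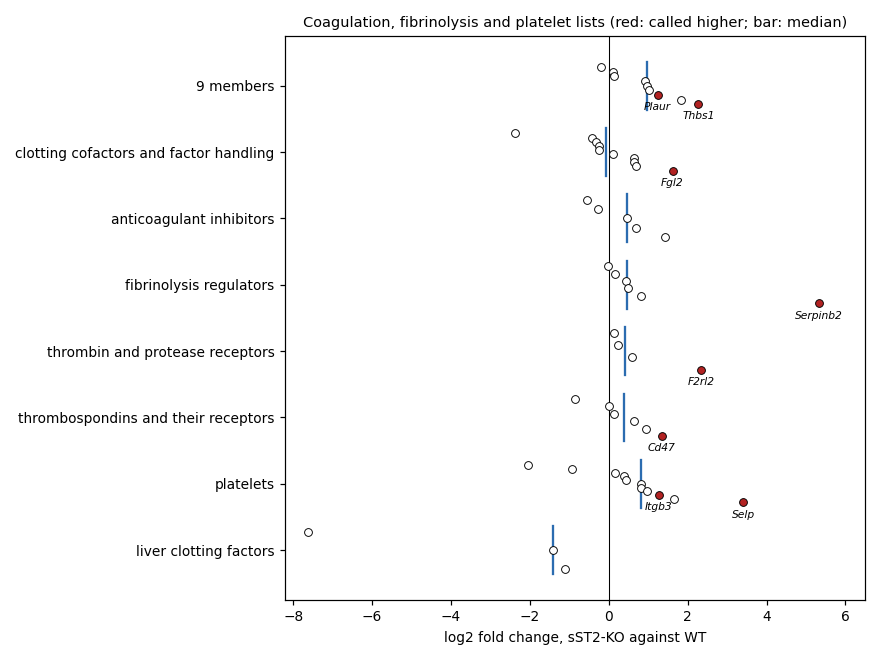
Log2 fold change, sST2-KO against WT, of the 9 genes and of the genes tested in 7 further lists, with 1 point per gene. Red points are called higher, no gene is called lower, and the blue bar is the list's median, which lies between -1.41 and 0.98.

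The genes whose log2 CPM followed each member most closely over the 6 libraries were looked up by Pearson's r, with genes below a mean of 2 on the log2 CPM scale left out, as a description. For Plaur these were Slc7a5, an amino acid transporter gene (r = 0.9987), Tmc6 and Osbpl3, and for Thbs1 they were Csk, a kinase gene (r = 0.9980), Ttc7 and Leprotl1. F10 was nearest to Il1rap (r = 0.9971), Krtcap2 and Metrn, and Plau to C4b (r = 0.9895), Tmem47 and Arap2. F13a1 was nearest to Pld1 (r = 0.9898), Cela1 and Hdgfrp3, and Pf4 to Ppp3r1 (r = 0.9980), Man2a1 and Wdr41. F3 was nearest to Slc12a4 (r = 0.9944), Pisd and Unc45a, Thbd to Trib1 (r = 0.9823), Actn1 and Gngt2, and Procr to Sec11a (r = 0.9728), Tiam1 and Cisd2. Among the 9 genes themselves the highest r values were 0.91 between Plaur and Thbs1, 0.91 between F13a1 and Pf4, 0.87 between F10 and Plaur, 0.85 between F10 and Thbs1 and 0.82 between F3 and Thbd. These 6 points share the group difference and the scaling of each library, and the best r was near 1 for each of the 9, so the values are not tested.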

How the data were processed

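RNA-seq libraries of BAT were used, 3 of WT and 3 of sST2-KO mice, grouped by their titles. The authors selected poly-A RNA, sequenced 150 bp paired-end reads, aligned them to mm39 with HISAT2 2.2.1 after FastQC 0.12.1 and counted them per gene with htseq-count; these versions are from the submitters' processing notes. The htseq-count version, annotation and strand setting are not given in the sources used here. The deposited counts are raw counts per gene symbol, and 0 columns were left unused. Without a strand setting, reads of F3, F13a1, Plau, Thbs1 and Thbd cannot be told from those of overlapping genes on the other strand. Of 8 such partners 3 are in the table, and Sstr4, that of Thbd, had at most 5 counts. The counts of the others, Gm13986 (of Thbs1) and Gm30489 (of F13a1), are not given here. In 27 rows a spreadsheet had turned the symbol into a date.

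Counts were fitted with edgeR 4.0.16 (R 4.3.3): filterByExpr kept 14542 genes, TMM gave the scaling, and edgeR's quasi-likelihood test was run on all of them, with Benjamini-Hochberg adjustment over them. The standard error is the size of the log2 fold change over the square root of F. Calls follow the 2-fold selection of the study's methods, which name DESeq2; here DESeq2 1.42.0 is an alternative. Steps were tested on simulated data. The members and lists were chosen with earlier results of these data known. All 9 members are named, with list genes that were called or that bind, inhibit or accompany a member, and its 3 most correlated genes. Vwf, S100a10, Mmrn1, F9, Lyz2, C1qb, Kdr, Emcn, Csf3r and Cxcr2 were named after their values were seen. The same holds for Adgre1, Cd68, Fcgr1, Itgam, Csf1r, Mertk, C1qa, C1qc, Fabp4 and Lep. Lists cover clotting cofactors, inhibitors, fibrinolysis, protease receptors, thrombospondins, platelets, liver factors and markers of cell types, and 2 genes of these lists are not reported here and were left out of their counts and sums. Marker sums that overlapped between WT and sST2-KO libraries and are not given elsewhere by group are those of fibroblasts (2251 to 6636 against 1268 to 10299 CPM), mast cells (79.8 to 168 against 102 to 249.6 CPM) and mesothelial cells (15.7 to 28.0 against 5.92 to 16.5 CPM). Python 3.11.15 and matplotlib 3.10.9 made the figures, and transcript lengths and positions are from the annotation of GRCm39, the assembly that mm39 names. Within a group, the chi-square of 2 libraries divided by its degrees of freedom was 36.6 to 104.0, far above 1, and each library was counted as its own replicate.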

Additional observations from a re-analysis of the deposited data

How the results depend on the processing

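The calls of Thbs1 and Plaur (2 genes called higher) held with DESeq2, with RLE or total-count scaling, with no filter or a minimum of 10 counts per sample, with robust estimation, without a minimum fold change and at an unadjusted p. With the replicate block 0 members and 0 genes of the 7 further lists were called higher, and the log2 fold changes were 2.10 for Thbs1 (adjusted p = 0.0955) and 1.21 for Plaur (adjusted p = 0.0644). Same-numbered libraries correlated at -0.058, 0.21 and -0.31 in their deviations from the group means. With 3 libraries per group these values cannot decide whether same-numbered libraries shared a litter or batch, and the labels give only a number. With 1 library left out, 0 to 2 members and 1 to 8 list genes were called higher, and 0 to 1 list genes lower. List genes called lower numbered 14 without a filter, 1 by DESeq2 and 2 at an unadjusted p. DESeq2 gave no adjusted p for Serpinb2. The log2 fold change with 1 library left out was 1.71 to 2.64 for Thbs1, 1.02 to 1.49 for Plaur, 1.12 to 4.46 for F10, -0.11 to 1.52 for F13a1, -0.20 to 1.32 for Pf4, -0.17 to 0.44 for Thbd, -0.16 to 0.32 for Procr and -0.61 to 0.043 for F3. Among list genes it was -0.034 to 0.45 for Plat, -2.94 to 0.45 for F5 and -0.92 to 1.23 for F7. Total counts turned F3 (0.083) and F7 (0.015) upward and moved the median of all genes from 0.034 to 0.29. Leaving out a library leaves fewer libraries by construction, and other causes were not tested. Depth limits genes such as F2rl2, with 3 to 6 counts in WT libraries.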
